A study of Mus musculus with 6 samples.

Results

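The collagen gene family was examined in mouse sarcoma cell lines that lack Dicer or keep a single working copy of it. Members were all probe sets annotated to exactly 1 gene symbol made of Col, a type number, the letter a and a chain number. This gave 82 probe sets for 42 genes, out of 18193 genes with such a probe set on the array. By type, 9 genes were fibrillar (types 1, 2, 3, 5 and 11), 6 were basement membrane collagens (type 4) and 27 were of other types. Col24a1 and Col27a1 are usually counted as fibril-forming too, but their type numbers put them among the other types here.

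The study hybridised RNA of 6 samples to 3′ expression arrays, 3 of them Dicer null (neither copy of Dicer intact) and 3 Dicer heterozygous (1 copy intact). Dicer cuts microRNA precursors into mature microRNAs. The cells of both groups are labelled as sarcoma cell line of strain C57BL6/J and were grown to confluence in DMEM with 10% FBS, with no other allele or agent named. The controls carry a defective copy as well, so the comparison leaves out cells with both copies. Which stretch of Dicer was deleted, and with what driver, is not in the labels, and a design note speaks of lines where the titles speak of replicates. Whether the 3 samples of a group came from separate lines or cultures is not given, so p-values measure only the spread between these samples.

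Values are log2 levels per probe set, between 0.40 and 14.18. A level is not an abundance that can be ranked between genes, since probes differ in how well they bind, and a brighter or dimmer probe set means brightness on the array only. A probe set was tested where its mean over the 6 arrays was at least 3, because lower values lie in the background of this method. Of the collagens, 46 probe sets standing for 27 genes passed this minimum, which is 64.3% of the family against 62.8% of all named genes. Where a gene has several tested probe sets, the one with the highest mean stands for it unless another is named.

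Both probe sets of Dicer1 were above background in both groups, 1 of them at 8.56, 8.40 and 8.42 on Dicer null and 8.60, 8.19 and 8.17 on Dicer heterozygous arrays, with differences of 0.14 and 0.27 that did not pass (limma adjusted p = 0.693 and 0.573). The deleted stretch is not known, so these probes may lie outside it and do not check the labels. The label of the cells was checked against markers. Of 10 mesenchymal markers 9 were tested, and Vim, the intermediate filament of mesenchymal cells, lay between 13.71 and 13.75 on Dicer null arrays and between 13.75 and 13.84 on Dicer heterozygous arrays. Others differed: Fap rose (values below), and S100a4, Pdgfra and Pdgfrb had differences of -1.37, -1.63 and -1.03 that did not pass (limma adjusted p = 0.0570, 0.0593 and 0.186). Of the 9, 4 had an unadjusted p under 0.05, a share that is 24.0% over all genes tested. The summed log2 level of the 10 markers was 100.5 to 106.6 on Dicer null and 103.5 to 104.4 on Dicer heterozygous arrays. Opposite differences cancel in such a sum: of the 9 tested markers 2 lay above 0 and 7 below, with a median difference of -0.10. Thy1, a fibroblast surface protein, was at background on all arrays but Dicer heterozygous replicate 1 (4.29). Of 6 endothelial markers 0 reached the mean of 3 (highest single value 3.31, Kdr), of 6 leukocyte markers Cd68 alone did, and of 8 epithelial markers Epcam and Krt18 did. Cd68 was above background on all 6 arrays, at 5.30, 4.43 and 5.84 on Dicer null and 7.13, 5.24 and 5.30 on Dicer heterozygous arrays. Epcam read 3.10, 5.21 and 3.26 on Dicer null and 3.55, 3.15 and 2.53 on Dicer heterozygous arrays. Krt18 was at 9.02 on Dicer heterozygous replicate 1 and at 2.68 or less on the other arrays.

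Collagens are secreted proteins whose chains wind around each other into a helix, and they form most of the protein of the extracellular matrix. Fibrillar collagens build the tension-bearing fibres of skin, bone and tendon, type 4 collagens build the sheet under epithelia and around vessels, and the remaining types sit on fibrils, anchor cells or form nets. Fibroblasts and the sarcomas that resemble them are rich producers. Among microRNAs, the miR-29 family is known for binding transcripts of several collagens and lowering them, so collagens are among the genes looked at when microRNA processing is lost.

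The collagens did not move as a block. Of 27 tested genes 1 rose (Col24a1) and 1 fell (Col11a1) in Dicer null cells, while no tested chain of types 1, 3, 4 or 5 passed. In RNA of whole cultures, fewer cells of a kind and less RNA per cell cannot be told apart. The count of 2 in 27 is 7.41%, against 3.46% of all 11425 genes tested (1.45% higher and 2.0% lower). Over the 27 genes the median log2 difference was -0.17, with 11 above 0 and 16 below, against a median of -0.01 over all genes tested. The median deviation of the 27 genes from their own means, taken per array, had an SD of 0.16 within a group. The median log2 difference was -0.045 without Dicer null replicate 2, -0.012 with a minimum mean of 4 and 0.0017 with no minimum. By class the medians were -0.32 for 8 fibrillar, 0.00 for 5 basement membrane and -0.28 for 14 other genes.

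Larger differences were frequent in the family, but so was spread between arrays of 1 group. In 8 of 27 collagens (29.6%) the groups differed by at least 2-fold, against 15.3% of all genes tested. Yet 6 of 27 (22.2%) had an unadjusted p under 0.05, against 24.0%, and in 7 of 27 (25.9%) the groups did not overlap, against 32.2%. The median SD within a group was 0.54 on the log2 scale for collagens and 0.31 for all genes. The plot of differences by gene shows the wide intervals of Col4a6, Col8a2, Col12a1 and Col11a1 beside the narrow ones of bright chains such as Col1a2, Col3a1, Col4a1, Col4a2 and Col4a5.

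**Figure D1:**
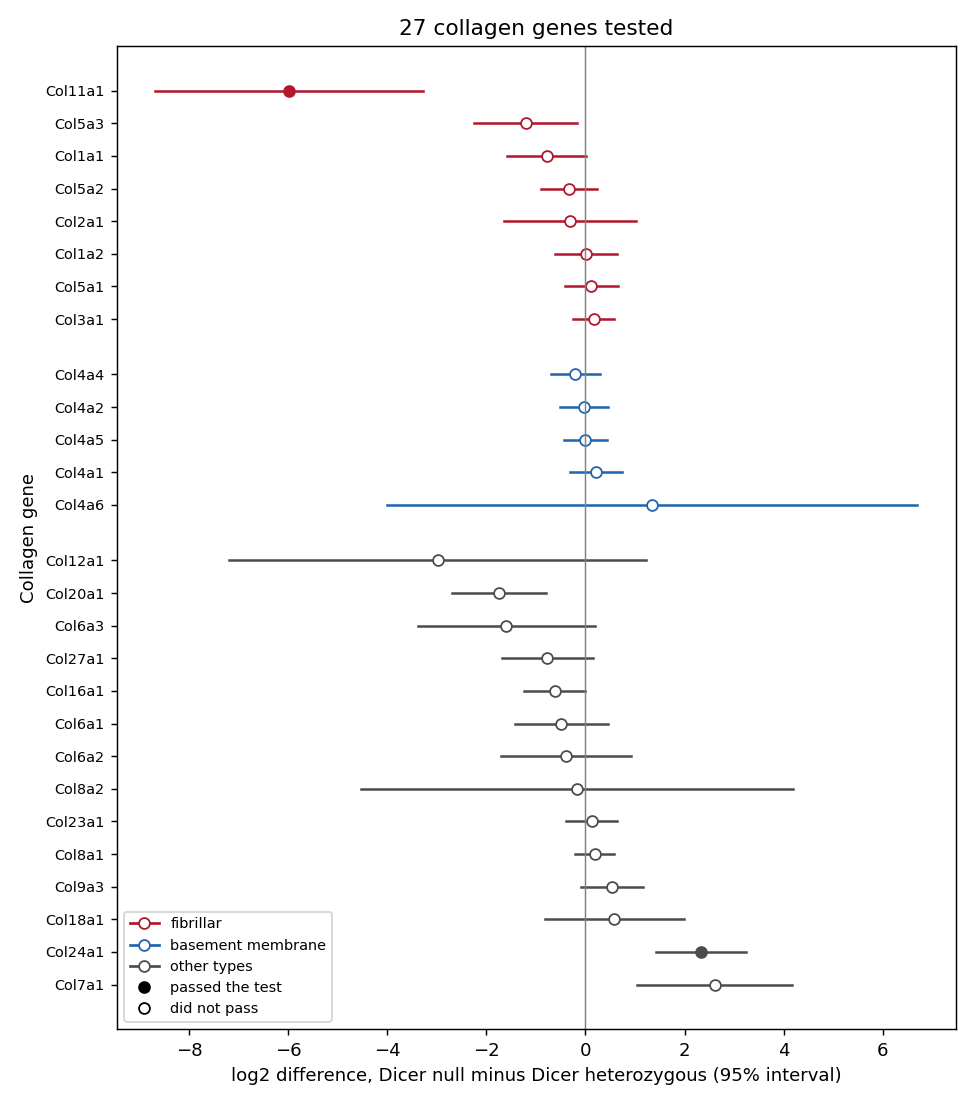
Log2 difference of each tested collagen gene (x axis, Dicer null minus Dicer heterozygous, with its 95% interval from limma), with genes in rows by class. Filled points passed the test over all probe sets. Col11a1 stands at -5.98 and Col24a1 at 2.33, and the interval of Col4a6 runs from -4.00 to 6.70.

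Col11a1, a fibrillar chain that sits inside cartilage fibrils and joins type 5 chains in other tissues, was at background in Dicer null cells. Its log2 values were 1.85, 1.60 and 1.71 on Dicer null arrays, against 5.02, 8.42 and 9.65 on Dicer heterozygous arrays. All 3 Dicer null arrays lay at background, and the Dicer heterozygous ones differed widely, with replicate 1 the lowest. The gene fell at least 25.9-fold, a bound that sets the Dicer heterozygous mean against a log2 value of 3 (log2 difference -5.98, SE 1.12, limma adjusted p = 0.0492). The bound was 65.6 without Dicer heterozygous replicate 1 and 13.2 without replicate 3 of that group. The other probe set of the gene gave 1.85, 1.67 and 1.71 on Dicer null and 4.06, 6.68 and 8.22 on Dicer heterozygous arrays, and did not pass (limma adjusted p = 0.0624). The call also ended when any array but Dicer heterozygous replicate 1 was left out (limma adjusted p 0.0579 to 0.160, and 0.00526 without that replicate). It ended as well with a lower or no minimum, with repeated quantile normalization and with values under 3 set to 3 (0.0511 to 0.0785). With the replicate number as a block it also ended (0.0898).

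Col24a1, a fibril-forming chain of developing bone and cornea, showed the opposite pattern. It stood at 4.59, 5.87 and 5.23 on Dicer null arrays, against 2.75, 3.36 and 2.59 on Dicer heterozygous arrays. The groups did not overlap, and the Dicer heterozygous mean of 2.90 ± 0.41 lay at background, while the Dicer null mean was 5.23 ± 0.64 (SD, n = 3 each). With the Dicer heterozygous group again set at 3, the gene rose at least 4.69-fold (log2 difference 2.33, SE 0.38, limma adjusted p = 0.0377). It has 1 probe set on the array, so no other probes check it. The call ended when any 1 of the 6 arrays was left out (limma adjusted p 0.0514 to 0.133), while the difference stayed between 2.01 and 2.65. It also ended with no minimum mean (0.0516) and with the replicate number as a block (0.0584).

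The promoters of these 2 genes are shown because Col11a1 and Col24a1 moved in opposite directions. Each is the 250 bases before the RefSeq start on GRCm38.p6, both on the + strand, at chr3:114030290-114030539 for Col11a1 and chr3:145292222-145292471 for Col24a1. Capitals mark matches on either strand to a GC box, a CCAAT box, a TATA box or an AP-1 site. The letters searched were GGGCGG for the GC box. For the CCAAT box they were those of its name. For the TATA box they were TATAAA, and for the AP-1 site the search used TGANTCA. No matches overlap in the windows printed.

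Col11a1: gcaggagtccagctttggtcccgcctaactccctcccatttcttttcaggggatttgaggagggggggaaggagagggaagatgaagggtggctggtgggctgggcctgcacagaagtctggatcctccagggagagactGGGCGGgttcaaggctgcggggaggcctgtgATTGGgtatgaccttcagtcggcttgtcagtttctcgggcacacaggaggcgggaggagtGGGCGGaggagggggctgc

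Col24a1: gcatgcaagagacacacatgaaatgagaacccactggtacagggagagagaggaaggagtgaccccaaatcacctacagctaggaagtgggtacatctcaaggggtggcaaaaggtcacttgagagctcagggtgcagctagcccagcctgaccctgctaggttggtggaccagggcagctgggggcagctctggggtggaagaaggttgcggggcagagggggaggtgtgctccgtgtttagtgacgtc

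The Col11a1 window holds 2 GC boxes and 1 CCAAT box, and that of Col24a1 holds none of the 4 motifs. Of 32851 mouse promoter windows of this length 32.7% hold a GC box, 33.9% a CCAAT box, 12.4% a TATA box and 6.75% an AP-1 site. Among 38 windows of 35 collagen genes, 22 hold a GC box, 13 a CCAAT box, 5 a TATA box and 1 an AP-1 site. A match is a run of letters, not a measured binding site.

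The major fibrillar chains of types 1 and 3 were bright in both groups. Col1a1 and Col1a2 encode the chains of type 1 collagen, the main protein of bone and tendon. Col1a1 stood at 12.43, 11.52 and 11.27 on Dicer null arrays and at 12.30, 12.54 and 12.73 on Dicer heterozygous arrays. Dicer null replicate 1 lay among the Dicer heterozygous values and the other 2 lay below them (log2 difference -0.78, 95% interval -1.58 to 0.02, limma adjusted p = 0.224). Its other probe set gave 11.85, 10.36 and 9.31 on Dicer null and 12.60, 13.08 and 12.73 on Dicer heterozygous arrays. There the groups did not overlap, with a log2 difference of -2.30 (SE 0.62, limma adjusted p = 0.0972). Col1a2 gave 12.91, 12.40 and 12.91 on Dicer null and 12.42, 12.64 and 13.14 on Dicer heterozygous arrays, and the groups overlapped. Its difference was 0.01, with a 95% interval of -0.62 to 0.64. Whether the 2 chains of type 1 collagen differ from each other in their response was not tested.

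Col3a1, the chain of the fine fibres in vessels and skin, stood at 12.99, 12.67 and 13.02 on Dicer null arrays and 12.63, 12.78 and 12.77 on Dicer heterozygous arrays. The groups overlapped (log2 difference 0.17, 95% interval -0.25 to 0.58, limma adjusted p = 0.603). Its other probe set gave 0.83 (SE 0.39, limma adjusted p = 0.263). Col2a1, the cartilage fibril chain, lay near background at 3.22, 3.06 and 3.67 on Dicer null and 3.64, 4.74 and 2.51 on Dicer heterozygous arrays. Col11a2, a partner of Col11a1 in cartilage, did not reach the minimum, with no value above 3.13.

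Type 5 chains set the diameter of type 1 fibrils and can form mixed molecules with Col11a1. Col5a1 stood at 11.94, 11.26 and 11.72 on Dicer null and 11.42, 11.68 and 11.46 on Dicer heterozygous arrays by its brightest probe set. These values overlapped (log2 difference 0.12, 95% interval -0.42 to 0.66, limma adjusted p = 0.786). Its other probe sets did not overlap between the groups. One read 11.40, 10.50 and 11.39 on Dicer null and 9.39, 10.11 and 9.50 on Dicer heterozygous arrays (difference 1.43, SE 0.33, limma adjusted p = 0.0728). The other read 10.00, 8.91 and 9.78 on Dicer null and 7.26, 8.52 and 7.14 on Dicer heterozygous arrays (1.92, SE 0.46, limma adjusted p = 0.0801). All 3 probe sets of Col5a1 had positive differences and none passed.

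Col5a2, which pairs with Col5a1, stood at 12.50, 11.80 and 12.47 on Dicer null and 12.48, 12.71 and 12.57 on Dicer heterozygous arrays. Its probe sets pointed in opposite directions, -0.33 and 0.38, and neither passed (limma adjusted p = 0.450 and 0.625). Col5a3, a less common chain of that type, read 2.36, 2.75 and 2.54 on Dicer null arrays, at background, and 4.71, 3.06 and 3.49 on Dicer heterozygous arrays. Its groups did not overlap (log2 difference -1.20, SE 0.43, unadjusted p = 0.0295, limma adjusted p = 0.168).

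Several bright genes had dimmer probe sets that differed more. Of 14 collagens with more than 1 tested probe set, a dimmer one had a larger difference in size in 10. Where a gene had several dimmer probe sets, the one that differed most was taken, which favours this outcome. The same count was not made over all genes. Among the 8 whose brightest probe set had a mean of at least 11, this held for 7, with Col4a1 the exception. The signs of all tested probe sets were the same in 10 of the 14 genes and mixed in Col1a2, Col4a1, Col4a5 and Col5a2. The 3 probe sets of Col8a1, a net-forming collagen of vessel walls, gave 0.19, 0.44 and 0.997 as their mean level went down. The part of probe brightness in these differences was not tested.

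**Figure D2:**
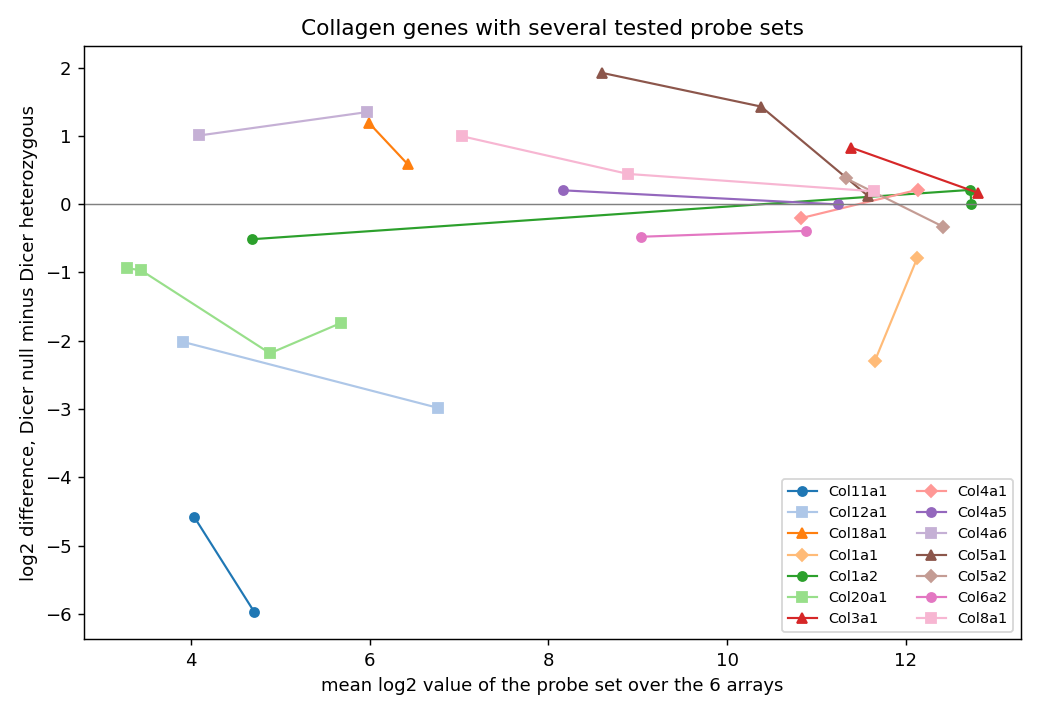
Log2 difference (y axis, Dicer null minus Dicer heterozygous) of each tested probe set against its mean log2 value over the 6 arrays (x axis), for 14 collagen genes with several probe sets, joined by gene. For Col5a1 the differences are 1.92, 1.43 and 0.12 from the dimmest to the brightest probe set, and for Col1a1 they are -2.30 and -0.78.

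miR-29 sequences are shown because miR-29 is the microRNA family best known for collagen targets and needs Dicer to mature. The mature strands follow 5′ to 3′, from RefSeq on GRCm38.p6, with the seed (bases 2 to 8) in capitals. They come from chr6:31062673-31062694 (- strand), chr6:31063025-31063047 (- strand, with a further copy of the gene on chromosome 1) and chr1:195037600-195037621 (+ strand).

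mmu-miR-29a-3p: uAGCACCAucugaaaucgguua

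mmu-miR-29b-3p: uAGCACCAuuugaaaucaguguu

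mmu-miR-29c-3p: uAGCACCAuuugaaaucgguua

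All share the seed AGCACCA. Of 6 collagens listed from general knowledge as miR-29 targets, 5 were tested and 0 passed in limma, with 0 at an unadjusted p under 0.05. Over all genes the shares were 3.46% and 24.0%, so a count of 0 in 5 tells little. Their median log2 difference was 0.01, with 3 above 0 and 2 below. Col1a1 was the lowest of the 5 at -0.78, and Col1a2, Col3a1, Col4a1 and Col4a2 lay between -0.02 and 0.21. The last member, Col15a1, lay between 1.71 and 1.99 on all arrays. The arrays measured no mature microRNA, so the level of miR-29 in these cells is not analysed here.

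Basement membrane chains varied least within groups, with a median SD of 0.23 against 0.40 for fibrillar and 0.55 for other collagens, and Col4a6 was the exception. Col4a1 and Col4a2, the chains of nearly every basement membrane, are neighbours on chromosome 8 that are read in opposite directions. Col4a1 stood at 12.35, 12.05 and 12.34 on Dicer null and 12.36, 12.01 and 11.73 on Dicer heterozygous arrays (log2 difference 0.21, 95% interval -0.31 to 0.74). Col4a2 stood at 12.31, 11.91 and 12.39 on Dicer null and 12.42, 12.10 and 12.15 on Dicer heterozygous arrays (-0.02, -0.51 to 0.47). The groups overlapped in both. Neither passed (limma adjusted p = 0.5995 and 0.968), and the other probe set of Col4a1 differed by -0.20.

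Col4a5 and Col4a6, chains of the kidney, skin and smooth muscle basement membrane, also lie head to head, on chromosome X, and behaved very differently between arrays. Col4a5 was even, at 11.36, 11 and 11.38 on Dicer null and 11.11, 11.32 and 11.32 on Dicer heterozygous arrays (log2 difference 0.00, 95% interval -0.44 to 0.43). Col4a6 read 8.72, 8.38 and 2.84 on Dicer null arrays and 5.58, 1.71 and 8.60 on Dicer heterozygous arrays. It was high on 3 arrays from both groups, intermediate on 1, and at background on Dicer null replicate 3 and Dicer heterozygous replicate 2. The dimmer probe set of Col4a6 followed, with 5.92, 5.59 and 2.27 on Dicer null and 3.22, 1.86 and 5.68 on Dicer heterozygous arrays. The SD of Col4a6 within groups, 3.38, was larger than that of 99.9% of all genes tested, and its difference of 1.35 did not pass (SE 2.21, limma adjusted p = 0.757).

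Promoters of this X-linked pair are shown because both genes start from 1 stretch of DNA between them, and 1 was steady and the other variable. They are the 250 bases before each RefSeq start on GRCm38.p6, at chrX:141474077-141474326 on the - strand for Col4a6 and chrX:141475169-141475418 on the + strand for Col4a5. Capitals mark the same motifs as above.

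Col4a6: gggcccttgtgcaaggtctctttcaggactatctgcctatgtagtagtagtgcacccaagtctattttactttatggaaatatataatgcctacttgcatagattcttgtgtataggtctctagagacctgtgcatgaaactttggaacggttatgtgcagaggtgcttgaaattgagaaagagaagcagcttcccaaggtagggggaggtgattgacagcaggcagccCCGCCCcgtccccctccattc

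Col4a5: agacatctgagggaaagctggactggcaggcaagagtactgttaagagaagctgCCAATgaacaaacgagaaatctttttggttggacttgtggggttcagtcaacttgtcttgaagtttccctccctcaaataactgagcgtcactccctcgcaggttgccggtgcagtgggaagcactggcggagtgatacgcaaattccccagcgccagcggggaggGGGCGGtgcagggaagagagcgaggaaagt

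Both windows hold 1 GC box, and that of Col4a5 holds 1 CCAAT box as well. GC content was 47.6% for Col4a6 and 54.0% for Col4a5, against a median of 52.4% over all windows. Of the other type 4 chains, Col4a4 lay near background (2.98, 3.21 and 3.14 on Dicer null arrays, 3.55, 3.42 and 2.96 on Dicer heterozygous arrays) and Col4a3 below it, at 2.44 or less. Those chains mark the filtering membrane of the kidney and the lung.

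**Figure D3:**
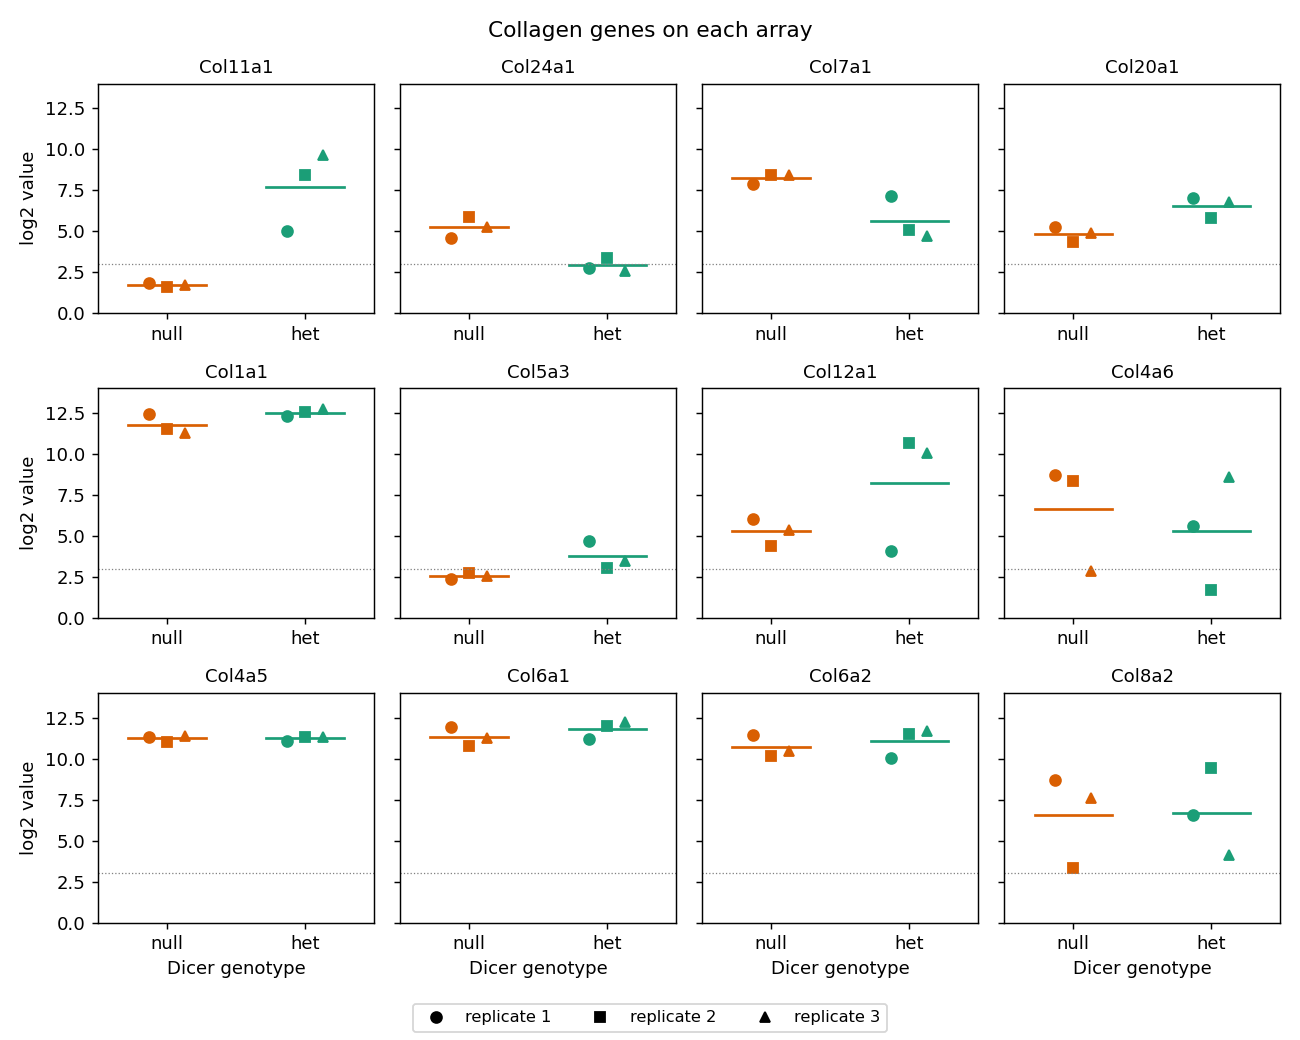
Log2 values (y axis) of 12 collagen genes on each array, with Dicer null (null) left of Dicer heterozygous (het), a marker shape for each replicate number, a bar at each group mean and a dotted line at the minimum mean of 3. Col11a1 is at background on all Dicer null arrays, Col4a6 and Col8a2 are spread widely within both groups, and Col6a1 and Col6a2 share their pattern over the arrays.

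Type 6 collagen forms beaded filaments near cells, from chains encoded by Col6a1, Col6a2 and Col6a3. Col6a1 stood at 11.96, 10.81 and 11.27 on Dicer null and 11.24, 12.02 and 12.23 on Dicer heterozygous arrays. Col6a2, its neighbour on chromosome 10, stood at 11.46, 10.17 and 10.45 on Dicer null and 10.05, 11.49 and 11.71 on Dicer heterozygous arrays. In both genes Dicer heterozygous replicates 3 and 2 and Dicer null replicate 1 were the highest, in that order, and the groups overlapped. Their differences were -0.48 and -0.39 (SE 0.39 and 0.54, limma adjusted p = 0.498 and 0.708). Col6a3 read 7.95, 7.88 and 5.54 on Dicer null and 8.08, 8.53 and 9.54 on Dicer heterozygous arrays, without overlap, and did not pass (-1.59, SE 0.73, limma adjusted p = 0.255).

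Col7a1 encodes the anchoring fibrils that fasten the skin to its base. Its values were 7.90, 8.42 and 8.42 on Dicer null arrays, against 7.17, 5.05 and 4.70 on Dicer heterozygous arrays. The groups did not overlap, and Dicer heterozygous replicate 1 was the nearest to the Dicer null arrays. The log2 difference of 2.61 (SE 0.65) was the highest of the 27 but did not pass (limma adjusted p = 0.0853). Without Dicer heterozygous replicate 1 it was 3.37 and passed (limma adjusted p = 0.0114, against 0.120 to 0.233 without any other array), and with array weights it passed too (0.0189).

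Among collagens that attach to fibrils, Col12a1, of dense connective tissue, read 6.06, 4.37 and 5.39 on Dicer null and 4.05, 10.67 and 10.05 on Dicer heterozygous arrays. Dicer heterozygous replicate 1 was the lowest of all 6 and the other 2 of its group the highest. The log2 difference was -2.98 (SE 1.74, limma adjusted p = 0.355), and without that replicate -5.09, which passed (0.0238, against 0.444 to 0.631 without any other array). In the dimmer tested probe set Dicer heterozygous replicates 2 and 3 were again the highest, with 3.08, 2.55 and 3.07 on Dicer null and 3.03, 5.73 and 5.99 on Dicer heterozygous arrays.

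Col20a1, a collagen of the same group, was lower on Dicer null arrays in all 4 of its probe sets. By the brightest it read 5.22, 4.32 and 4.90 on Dicer null and 7.04, 5.82 and 6.79 on Dicer heterozygous arrays, without overlap. It did not pass (log2 difference -1.74, SE 0.39, limma adjusted p = 0.0689), and the other probe sets gave -2.18, -0.97 and -0.94. Col16a1, also fibril-associated, read 10.98, 10.18 and 10.29 on Dicer null and 11.23, 11.12 and 10.96 on Dicer heterozygous arrays. There the highest Dicer null value lay above the lowest Dicer heterozygous one by a small margin (-0.62, SE 0.25, unadjusted p = 0.0477, limma adjusted p = 0.211).

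Col14a1, a further fibril-associated collagen, was not tested because its mean was below 3, and it is named after its values were seen. Its brightest probe set read 3.14, 5.09 and 2.27 on Dicer null arrays and 1.56, 1.68 and 1.78 on Dicer heterozygous arrays, so the groups did not overlap. In the fit without a minimum its difference was 1.83 (SE 0.69, limma adjusted p = 0.251).

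Col8a2, a net-forming chain of the cornea that pairs with Col8a1, read 8.68, 3.34 and 7.60 on Dicer null and 6.60, 9.43 and 4.10 on Dicer heterozygous arrays. It varied within both groups, with its highest values on Dicer heterozygous replicate 2 and Dicer null replicate 1 (difference of means -0.17, SE 1.80). The SD within groups, 2.75, exceeded that of 99.8% of all genes tested, and that of Col12a1, 2.65, likewise exceeded 99.8%. Col8a1 was steady by its brightest probe set, at 11.63, 11.83 and 11.75 on Dicer null and 11.50, 11.43 and 11.71 on Dicer heterozygous arrays. Its dimmest probe set read 7.28, 7.87 and 7.43 on Dicer null and 5.87, 6.51 and 7.21 on Dicer heterozygous arrays. There the groups did not overlap, and it did not pass (0.997, SE 0.37, limma adjusted p = 0.178).

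The remaining tested collagens had adjusted p values of 0.272 or more in limma. Col18a1, the source of endostatin, read 5.60, 7.80 and 6.75 on Dicer null and 6.68, 5.64 and 6.07 on Dicer heterozygous arrays, with Dicer null replicate 2 the highest. Col27a1 read 2.67, 2.74 and 2.53 on Dicer null and 3.15, 2.83 and 4.26 on Dicer heterozygous arrays, all but the last near background. Its groups did not overlap, and it did not pass (-0.77, SE 0.38, limma adjusted p = 0.281). Col9a3, of cartilage, differed by 0.54 (SE 0.26) and Col23a1, a membrane collagen, by 0.12 (SE 0.21).

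Besides Col14a1, Col15a1, Col4a3 and Col11a2, the untested collagens were Col6a4, Col6a5, Col9a1, Col9a2, Col10a1, Col13a1, Col17a1, Col19a1, Col22a1, Col25a1 and Col26a1. The means of the 26 probe sets of all 15 untested genes lay between 1.28 and 2.86. Among those 11 genes, Col6a4 had the highest single value, 3.77 on Dicer heterozygous replicate 1, and Col22a1 reached 3.38 on Dicer null replicate 2. Among them, the cartilage collagens Col9a1, Col9a2 and Col10a1 stayed at 2.34 or less. Other cartilage collagens were tested: Col11a1 and Col2a1, with values above, and Col9a3. By the 1 of its 3 probe sets that was tested, Col9a3 read 5.02, 5.17 and 5.33 on Dicer null arrays. On Dicer heterozygous arrays it read 5.10, 4.59 and 4.22. At the edge of the minimum, probe sets of Col23a1 and Col9a3 with means of 2.89 and 3.00 (2.998 before rounding) did not reach it, and those of Col27a1 and Col5a3 with means of 3.03 and 3.15 were tested.

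Over the family, no array was consistently the low one, but Dicer null replicate 2 came nearest. It held the lowest of the 6 values in 10 of 27 genes, against 2 and 3 for Dicer null replicates 1 and 3 and 4, 2 and 6 for Dicer heterozygous replicates 1, 2 and 3. The median deviation of the 27 genes from their own means was 0.11, -0.30 and 0.05 on Dicer null replicates 1, 2 and 3, and 0.12, 0.07 and 0.15 on the Dicer heterozygous ones. For all genes tested these medians lay between -0.05 and 0.07. For the 8 fibrillar genes Dicer null replicate 2 was at -0.41 and the other arrays between 0.09 and 0.24.

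Of 18 tested genes that modify, fold and export collagen chains 0 rose and 2 fell, against 3.46% of all genes tested that passed, and 3 had an unadjusted p under 0.05, against 24.0%. The median difference was -0.05. P4ha3, a catalytic chain of the prolyl hydroxylase that stabilises the helix, read 8.66, 7.79 and 8.66 on Dicer null and 10.29, 10.53 and 10.54 on Dicer heterozygous arrays. It fell 4.24-fold (log2 difference -2.08, SE 0.28, limma adjusted p = 0.0251). P3h3, a relative of the enzymes that hydroxylate proline at a further position, read 7.51, 7.33 and 7.52 on Dicer null and 9.0, 8.69 and 8.79 on Dicer heterozygous arrays, and fell 2.59-fold (-1.37, SE 0.17, limma adjusted p = 0.0203). In both the groups did not overlap. Both calls held without Dicer heterozygous replicate 1 or 3 and ended without any other array (limma adjusted p 0.0592 to 0.0849 for P4ha3 and 0.0632 to 0.0871 for P3h3). The third gene with an unadjusted p under 0.05 was P3h4, at -1.90 without overlap, which did not pass (SE 0.42, limma adjusted p = 0.0673). The collagen chaperone Serpinh1 (0.18, SE 0.17), the main prolyl hydroxylase chain P4ha1 (0.21, SE 0.17) and the hydroxylase subunit P4hb (-0.02, SE 0.16) did not pass. Of the 18 genes 7 lay above 0 and 11 below.

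Of 10 tested genes for processing and cross-linking 0 passed in limma, against 3.46% of all genes, and 3 had an unadjusted p under 0.05, against 24.0%, with 5 above 0, 5 below and a median of -0.19. The nearest was Tgm2, a transglutaminase that links matrix proteins, with 9.21, 8.28 and 8.22 on Dicer null and 12.15, 10.49 and 10.74 on Dicer heterozygous arrays, without overlap (-2.56, SE 0.51, limma adjusted p = 0.0548). Adamts3, which trims the ends of procollagen, read 5.78, 6.28 and 3.76 on Dicer null and 1.31, 2.10 and 2.85 on Dicer heterozygous arrays. With the Dicer heterozygous arrays at background it was at least 4.83-fold higher and did not pass (limma adjusted p = 0.0713). The cross-linking enzyme Loxl3 differed by -2.55 (SE 0.64, limma adjusted p = 0.0878) and the procollagen enhancer Pcolce by 0.08 (SE 0.14).

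Of 13 tested fibril-associated proteins 0 passed in limma, against 3.46% of all genes, and 4 had an unadjusted p under 0.05, against 24.0%, with a median of -0.11. Fmod, fibromodulin, a small proteoglycan that binds fibrils, came nearest and read 2.85, 2.73 and 2.51 on Dicer null and 6.04, 11.07 and 9.13 on Dicer heterozygous arrays. As with Col11a1, all Dicer null arrays lay at background and Dicer heterozygous replicate 1 was the lowest of its group (-6.05, SE 1.18, limma adjusted p = 0.0536). Lum, lumican, a relative of Fmod, pointed the other way, at 4.83, 6.73 and 3.39 on Dicer null and 1.95, 1.75 and 2.79 on Dicer heterozygous arrays (2.82, SE 0.83, limma adjusted p = 0.116). Sparc, a collagen-binding matrix protein, differed by 0.08 (SE 0.14).

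Of 6 tested collagen receptors 0 passed in limma, against 3.46% of all genes, and 0 had an unadjusted p under 0.05, against 24.0%, with a median of 0.06. Itgb1, the beta chain of the collagen-binding integrins, had the smallest p, with a difference of 0.46 (SE 0.22, limma adjusted p = 0.277). The receptor kinases Ddr1 and Ddr2 differed by 0.09 and -0.06, and the uptake receptor Mrc2 by -0.01.

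Among 9 tested genes of collagen breakdown 1 rose and 1 fell, against 3.46% of all genes that passed, and 4 had an unadjusted p under 0.05, against 24.0%. The median difference was -0.02. Fap, a surface protease that cuts denatured collagen, read 9.41, 6.12 and 8.32 on Dicer null and 3.68, 2.42 and 2.83 on Dicer heterozygous arrays. With the Dicer heterozygous mean set at 3, it rose at least 30.9-fold (log2 difference 4.97, SE 0.84, limma adjusted p = 0.0408). Without 1 array the bound was 18.6-fold (Dicer null replicate 1 left out) to 58.3-fold (Dicer null replicate 2 left out). Timp3, a matrix-bound inhibitor of metalloproteinases, read 10.22, 9.01 and 8.90 on Dicer null and 11.48, 12.54 and 12.51 on Dicer heterozygous arrays, and fell 6.96-fold (-2.80, SE 0.46, limma adjusted p = 0.0386). The groups overlapped in neither gene. The call of Fap held without Dicer null replicate 2 and ended without any other array (limma adjusted p 0.0624 to 0.144). That of Timp3 held without replicate 1 of either group and ended without any other array (0.0611 to 0.135). The collagenases Mmp1a and Mmp8 were at background. Mmp13, a further collagenase under the minimum, read 2.45, 4.26 and 3.80 on Dicer null and 2.39, 1.90 and 2.81 on Dicer heterozygous arrays, which overlapped. The gelatinase Mmp2 and the membrane-bound Mmp14 differed by -0.08 and 0.72 and did not pass. Timp2 and Timp1, inhibitors like Timp3, differed by -1.01 and -0.86 without overlap. They had an unadjusted p under 0.05 and did not pass (limma adjusted p = 0.134 and 0.137). Of the 9 tested genes 4 lay above 0 and 5 below.

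**Figure D4:**
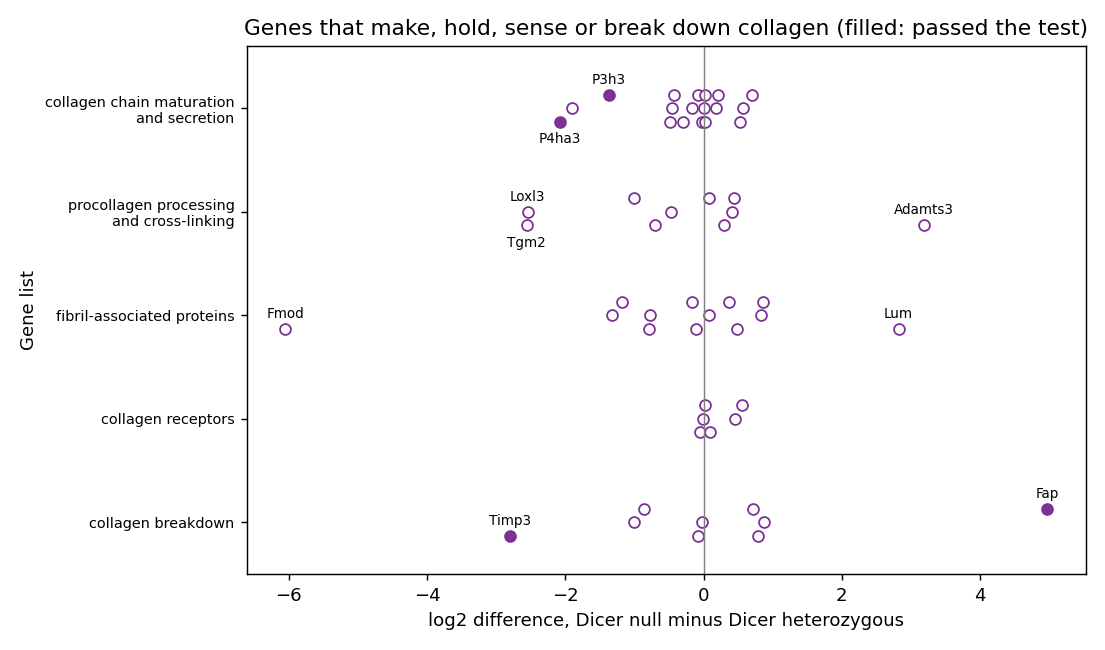
Log2 difference (x axis, Dicer null minus Dicer heterozygous) of each tested gene in 5 lists around collagen (rows). Filled points passed the test: P3h3, P4ha3 and Timp3 lie below 0 and Fap above it, and Fmod, at -6.05, did not pass.

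Markers of cell types that also make these collagens were set beside them. Of 10 smooth muscle markers 6 were tested, 0 rose and 2 fell, Acta2 and Tagln, which code for proteins of the contractile apparatus. Over all genes tested 3.46% passed and 2.0% fell. Acta2 read 7.86, 6.22 and 4.96 on Dicer null and 13.10, 12.71 and 12.92 on Dicer heterozygous arrays (limma adjusted p = 0.0169). Tagln read 5.93, 5.08 and 5.20 on Dicer null and 11.93, 9.19 and 10.90 on Dicer heterozygous arrays (limma adjusted p = 0.0238). The call of Acta2 ended without replicate 2 of either group (0.0795 and 0.0569), and that of Tagln without any Dicer null array (0.0600 to 0.0979). Of the other tested markers, Lmod1 differed by -1.80, Synpo2 by -0.32, Mylk by -0.12 and Smtn by 0.34, and none passed. The summed log2 level of the 10 markers was 43.3 to 48.7 on Dicer null and 56.5 to 69.5 on Dicer heterozygous arrays. The highest sum was that of Dicer heterozygous replicate 1, where Actg2 read 6.62, Lmod1 6.54 and Cnn1 4.08, against at most 2.43, 3.38 and 2.26 on the other arrays. This is the array without which Col7a1 and Col12a1 passed. Myh11, the myosin that defines mature smooth muscle, lay at 2.75 or less on all arrays. Of 10 cartilage markers 4 were tested, 0 passed in limma and 3 had an unadjusted p under 0.05, against 24.0% of all genes tested. Sox9, the master regulator of cartilage, read 8.01, 8.73 and 8.82 on Dicer null and 9.48, 10.31 and 10.62 on Dicer heterozygous arrays, without overlap (-1.62, SE 0.37, limma adjusted p = 0.0715). Comp and Acan also lay below 0, at -0.79 without overlap and -2.45 with overlap (limma adjusted p = 0.135 and 0.253). Sox5, which acts with Sox9, pointed the other way, at 3.98, 3.83 and 3.79 on Dicer null and 3.13, 3.45 and 2.50 on Dicer heterozygous arrays (0.84, SE 0.27, limma adjusted p = 0.137). The median difference of the 4 was -1.20. The sum of the list was 30.5 to 31.5 on Dicer null and 30.2 to 35.5 on Dicer heterozygous arrays. Of 5 bone markers on the array 3 were tested and 0 passed in limma or had an unadjusted p under 0.05. The sums were 21.5 to 25.4 on Dicer null and 24.6 to 24.8 on Dicer heterozygous arrays. Opposite differences cancel in them, with Phex at 1.48 and Dmp1 and Alpl at -0.93 and -0.72. Dmp1 reached 10.12, on a suffixed probe set of the kind that 1 alternative setting left out. The part of these markers in the collagen values was not tested.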

How the data were processed

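RNA of 6 samples of mouse sarcoma cells, 3 Dicer null and 3 Dicer heterozygous, was measured on 3′ arrays. The deposited values are log2 levels, 1 per probe set and array, and per the submitters' processing notes they were made with GCRMA 2.20.0 in R 2.11.1, a method that models background from probe sequence and normalizes quantiles. For that step, settings were not given in the sources used here. The log2 scale was read from the tool and the value range. Array medians lay between 3.32 and 3.43, and no column was without a sample.

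Names came from the platform annotation (34945 probe sets with 1 symbol, 932 with several, 9160 with none). Entrez IDs tied all 42 collagen symbols to RefSeq's table of GRCm38.p6. Sequences are RefSeq's.

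limma 3.58.1 in R 4.3.3 (lmFit, eBayes, two-sided) was fitted to all 24385 probe sets with a mean of at least 3, with Benjamini-Hochberg adjustment at 0.05. It called 756, and 395 of 11425 genes. The fit was run on simulated data with independent normal noise for each probe set and known shifts. That checks the code and its direction, and says nothing on how stable the calls in these data are. Intervals are unadjusted. With 3 arrays against 3 an exact permutation test cannot go below 0.1, so none is given, and the number of arrays limits the precision.

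Members, gene lists and tests were chosen with earlier results of these data known. Named were every called collagen, every tested chain of types 1, 3, 4, 5 and 11 and partners of called chains, others with an unadjusted p under 0.05, from each pathway list the called genes or the one with the smallest p, and from each marker list the called genes and the one with the highest value. Genes named beyond that were chosen after their values were seen. Replicate numbers were not taken to pair samples. Alternatives were other minimums, moderation, scaling, array weights, a floor, a block, other probe set choices and leaving out each array. Figures were drawn with matplotlib 3.10.9.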

Additional observations from a re-analysis of the deposited data

How the results depend on the processing

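With 3 arrays a group, calls near the threshold were fragile. Collagen genes called numbered 2 (Col24a1 and Col11a1) and stayed 2 with a minimum mean of 4, trend and robust moderation, centred arrays and either other choice of probe set. They were 1 (Col24a1) with a minimum of 2, quantile normalization again or values below 3 set to 3, and 0 with no minimum. Array weights gave 3, adding Col7a1. Without 1 array the count was 0 to 3, and without Dicer heterozygous replicate 1 the 3 were Col7a1, Col11a1 and Col12a1. Deviations of same-numbered arrays from their group means correlated at -0.06, 0.11 and 0.24, so the numbers were not taken as pairs, and with the number as a replicate block the count was 0, with 116 probe sets and 1 gene of the 5 pathway lists called. All probe sets called numbered 756, but 2949 with array weights and 45 to 857 without 1 array. The family's median of -0.17 was 0.0017 with no minimum, -0.043 with a minimum of 2, -0.012 with a minimum of 4, -0.020 with suffixed probe sets left out, -0.31 with array weights, -0.10 to -0.19 under the other settings that moved it and -0.21 to -0.05 without 1 array (-0.215 and -0.045). The 4 called genes of the pathway lists, a count whose alternatives were added after seeing the data, became 11 with array weights and 0 to 4 without 1 array. Col11a1, Col24a1, Col5a3 and Col27a1 have a group mean under 3, so their differences rest in part on background values.

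Signs turned only in collagens that passed in neither setting. Col1a2 (0.01) was -0.017 with centred arrays, -0.10 as the mean of its probe sets and -0.15 to 0.21 without 1 array. Col4a5 (0.00) was 0.0052 with array weights, 0.10 as a mean of probe sets and -0.073 to 0.12 without 1 array. Col4a2 (-0.02) was 0.10 with array weights and -0.11 to 0.13 without 1 array, and Col5a2 (-0.33) was 0.03 (0.025) as a mean of probe sets. Without 1 array the ranges that crossed 0 were -0.03 to 0.31 for Col5a1, -1.48 to 1.43 for Col8a2, -0.44 to 3.25 for Col4a6, -0.87 to 0.24 for Col2a1 and -0.05 to 0.24 for Col23a1 (-0.045 at its lowest). What lies behind these shifts, the cause, was not tested.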
